A study of Mus musculus with 4 samples.

Results

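The genes of oxidative phosphorylation encode the subunits of the respiratory chain and of ATP synthase. They were taken as the protein-coding mouse genes whose symbols begin with Ndufa, Ndufb, Ndufc, Ndufs, Ndufv, Uqcr, Cox4, Cox5, Cox6, Cox7, Cox8 or Atp5, with Sdha, Sdhb, Sdhc and Sdhd. The rule found 96 of the 21631 protein-coding genes on chromosomes 1 to 19 and X. By role, 39 belonged to complex I, 4 to complex II, 8 to complex III, 20 to complex IV and 17 to complex V, and the other 8 were complex I assembly factors whose symbols begin with Ndufaf. Ndufa4 and Ndufa4l2 carry a complex I name and were counted with complex IV, where the NDUFA4 protein is known to reside. An additional 19 pseudogenes that matched the symbols were left out.

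Complex I (NADH dehydrogenase) and complex II (succinate dehydrogenase) pass electrons to ubiquinone, complex III hands them to cytochrome c, and complex IV (cytochrome c oxidase) reduces oxygen. Proton pumping by complexes I, III and IV drives complex V, the ATP synthase. T cells raise their demand for ATP and biosynthesis after activation and draw on both glycolysis and respiration, and the nuclear subunit genes are known in mammals as targets of the factors NRF1, GABP (of the ETS family) and YY1.

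Accessible DNA was mapped by ATAC-seq, in which the Tn5 transposase cuts and tags open chromatin, using CD8+ lymphocytes from Balb/c mice, named in the series title as tumour-infiltrating T cells. There were 4 libraries, 1 per condition: cells stimulated and given phenelzine, stimulated and untreated, unstimulated and given phenelzine, and unstimulated and untreated. Stimulation was with the phorbol ester PMA and the calcium ionophore ionomycin for 2 h, a treatment that bypasses the T cell receptor. Phenelzine, a drug that blocks monoamine oxidases, also acts on the histone demethylase LSD1. The labels name no genetic change in any group, and the tumour, the age of the mice, the phenelzine dose and any sorting step are not stated there or in the other sources at hand. The design text states that there were no replicates, so the values below carry no replicate error and no test: presence in one list and absence from another compares 2 libraries, not 2 conditions.

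The authors' peak lists held 9322 peaks on chromosomes 1 to 19 and X in the stimulated phenelzine library, 10405 in the stimulated untreated library, 7929 in the unstimulated phenelzine library and 6519 in the unstimulated untreated library. Total reads are not in the lists, so list length is the one trace of depth and cannot be told apart from the treatments. The defining CD8 genes Cd8a and Cd8b1, and Cd3e and Cd3g, had no peak within 1 kb of either gene end in any list. Of 9 T cell markers, Cd3d and Cd5 had one in at least 1 list. None of 3 CD4 T cell, 6 B cell and 7 stroma and tumour markers had one, against 1 of 6 myeloid markers (Cd14) and 1 of 4 NK cell markers (Nkg7). The labelled cell type was therefore not visible at these marker gene ends.

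A gene was counted as held by a list when at least 1 base of a peak lay within 1 kb of either end of the gene, called a gene-end peak below. Each peak carries the authors' own fold enrichment over local background and its −log10 q-value, which rank peaks within a list and were not compared between lists as measures of change.

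To let the regions behind the values be seen, 5 promoters of held genes and 1 promoter without a peak are printed, from 250 bases before to 50 bases after the annotated start site, 5′ to 3′ on the gene's strand. Sequences and coordinates are from RefSeq on GRCm38.p6. Capitals mark matches, on either strand, to GCGC, any base and TGCGC in a row (the NRF1 motif), CCGGAAG (ETS), AAGATGGC (YY1), TGACGTCA (the cyclic AMP response element, CRE), GGGCGG (SP factors), CCAAT (the CCAAT box) and TGANTCA (AP-1). None of these motifs contains another. Atp5b, the gene of the catalytic beta subunit of ATP synthase, is shown because it led the family in 3 of the 4 lists; it lies on chromosome 10, plus strand, chr10:128083057-128083356.
Atp5b: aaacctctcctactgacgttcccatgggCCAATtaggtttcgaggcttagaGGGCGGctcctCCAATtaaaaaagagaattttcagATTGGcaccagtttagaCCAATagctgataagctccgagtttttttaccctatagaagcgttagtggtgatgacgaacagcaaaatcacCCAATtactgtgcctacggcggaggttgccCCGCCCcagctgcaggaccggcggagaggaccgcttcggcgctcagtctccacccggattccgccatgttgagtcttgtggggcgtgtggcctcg
Uqcrc1, a core protein of complex III at chr9:108936398-108936697 (plus strand), Ndufb4, an accessory subunit of complex I at chr16:37654319-37654618 (minus strand), and Sdha, the flavoprotein of complex II at chr13:74350191-74350490 (minus strand), are shown for their repeated NRF1 matches.
Uqcrc1: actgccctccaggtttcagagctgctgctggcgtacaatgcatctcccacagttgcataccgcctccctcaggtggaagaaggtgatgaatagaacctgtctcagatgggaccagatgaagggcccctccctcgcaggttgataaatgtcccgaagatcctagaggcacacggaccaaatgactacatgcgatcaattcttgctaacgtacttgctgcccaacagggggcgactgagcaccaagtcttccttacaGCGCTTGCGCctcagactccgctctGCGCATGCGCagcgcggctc
Ndufb4: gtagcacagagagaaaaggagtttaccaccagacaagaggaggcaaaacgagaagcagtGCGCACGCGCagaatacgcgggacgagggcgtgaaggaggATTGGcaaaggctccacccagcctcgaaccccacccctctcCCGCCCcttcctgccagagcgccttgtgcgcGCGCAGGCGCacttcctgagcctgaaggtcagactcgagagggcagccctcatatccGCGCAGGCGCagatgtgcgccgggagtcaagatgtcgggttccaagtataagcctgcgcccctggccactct
Sdha: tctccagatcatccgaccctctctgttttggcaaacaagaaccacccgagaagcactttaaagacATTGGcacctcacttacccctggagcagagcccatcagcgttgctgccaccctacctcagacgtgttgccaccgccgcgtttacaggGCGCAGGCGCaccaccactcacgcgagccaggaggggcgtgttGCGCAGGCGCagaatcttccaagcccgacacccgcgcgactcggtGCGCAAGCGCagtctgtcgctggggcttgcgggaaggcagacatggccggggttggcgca
Atp5md, a small membrane subunit of ATP synthase at chr19:47090598-47090897 (minus strand), is shown because both stimulated lists held it and neither unstimulated list did. Cox8b, a heart and muscle form of a complex IV subunit at chr7:140900397-140900696 (minus strand), is shown as a gene that no list held.
Atp5md: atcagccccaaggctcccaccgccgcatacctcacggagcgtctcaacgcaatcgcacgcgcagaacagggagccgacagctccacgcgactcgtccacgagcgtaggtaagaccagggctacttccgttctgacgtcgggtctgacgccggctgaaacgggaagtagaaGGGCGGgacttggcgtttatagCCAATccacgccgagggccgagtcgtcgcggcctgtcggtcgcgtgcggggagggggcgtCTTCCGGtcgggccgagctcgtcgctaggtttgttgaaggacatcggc
Cox8b: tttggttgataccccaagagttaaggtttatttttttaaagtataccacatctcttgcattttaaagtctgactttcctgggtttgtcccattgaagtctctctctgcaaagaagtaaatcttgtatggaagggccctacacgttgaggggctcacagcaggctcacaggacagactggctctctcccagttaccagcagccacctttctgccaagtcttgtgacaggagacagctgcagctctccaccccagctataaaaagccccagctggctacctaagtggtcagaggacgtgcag

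Most genes of oxidative phosphorylation carried an accessible gene end. The stimulated phenelzine list held 66 of the 96 genes (68.8%, exact 95% interval 58.5 to 77.8), against 27.4% of all protein-coding genes. The stimulated untreated list held 68 (70.8%, interval 60.7 to 79.7), against 29.3% of all genes. The unstimulated phenelzine list held 59 (61.5%, interval 51.0 to 71.2), against 25.6% of all genes, and the unstimulated untreated list held 49 (51.0%, interval 40.6 to 61.4), against 23.0%. The order of the 4 counts is the order of the list lengths. When each list was reduced to its 6519 peaks of highest −log10 q, the counts were 55, 61, 56 and 49 in the same order of lists, while the shares of all genes were 23.4%, 23.7%, 23.3% and 23.0%. The intervals cover counting error over genes only.

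In all, 74 of 96 genes (77.1%, interval 67.4 to 85.0) were held by at least 1 list, where the share of all genes was 34.9%. All 4 lists held 44 of them (45.8%, interval 35.6 to 56.3), where the share of all genes was 17.7%. The cytosolic ribosomal protein genes, held by at least 1 list in 74 of 90 cases (82.2%), and the mitochondrial ribosomal protein genes, 53 of 78 (67.9%), lay on either side. High shares at gene ends were thus seen in other widely expressed gene families as well.

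**Figure D1:**
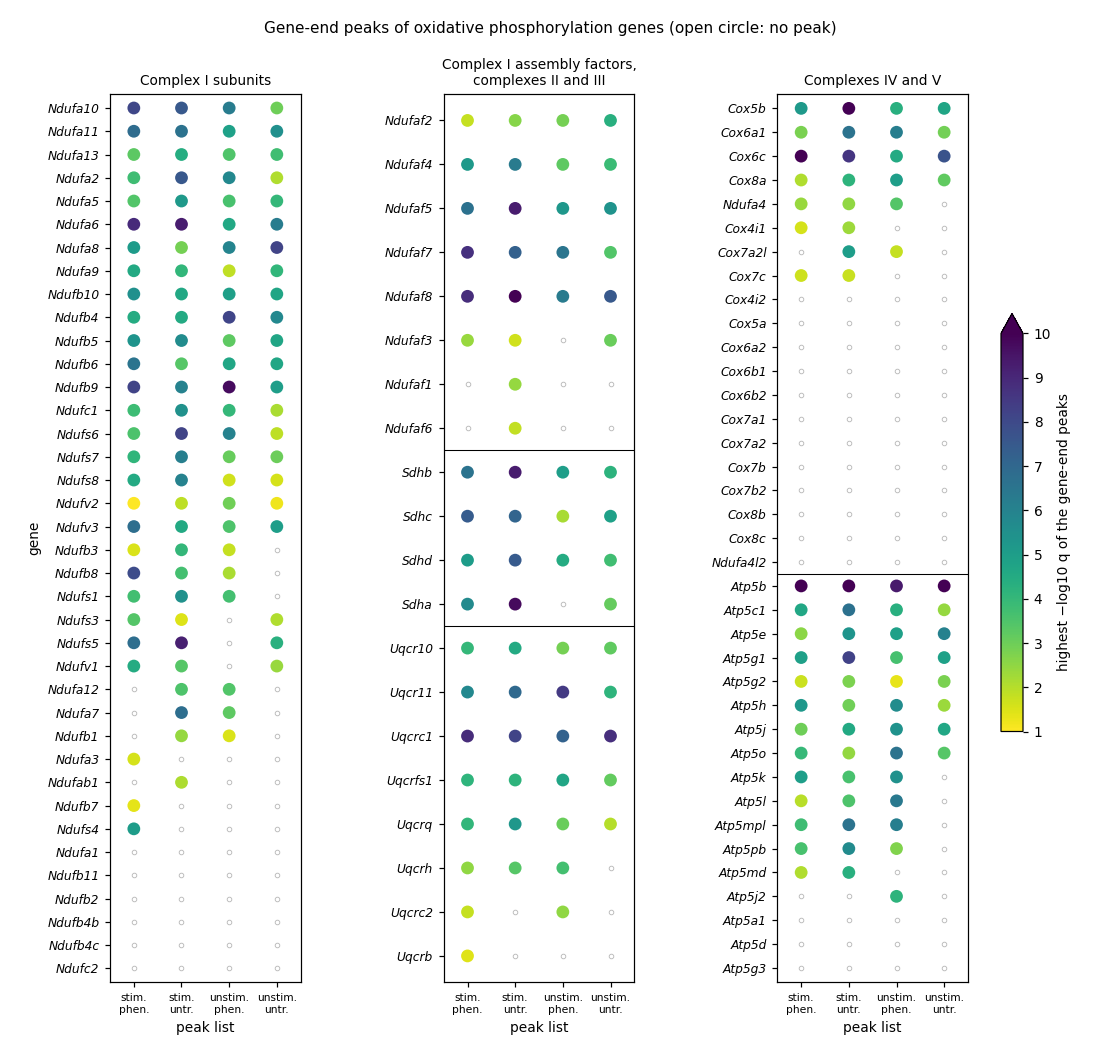
Rows are genes of the family, grouped by complex, and columns the 4 peak lists. Colour gives the highest −log10 q among the gene-end peaks within that list, and a small open circle marks a gene without one. Complexes I, II, III and V are mostly filled, while complex IV has 12 of 20 genes open in every list.

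Complex I was held broadly. At least 1 list held 32 of its 39 genes, and all 4 lists held 19. The stimulated phenelzine list held 28, the stimulated untreated list 29, the unstimulated phenelzine list 25 and the unstimulated untreated list 22. Among the conserved core subunits, which carry the flavin and iron-sulfur clusters or line the path to ubiquinone, Ndufs7, Ndufs8 and Ndufv2 were held by all 4 lists. Ndufv1, the NADH-binding subunit, had −log10 q of 4.50 in stimulated phenelzine cells, 3.36 in stimulated untreated cells and no peak in unstimulated phenelzine cells, and in unstimulated untreated cells its value was 2.39. Ndufs1, the largest core subunit, had 3.71 in stimulated phenelzine cells, 5.47 in stimulated untreated cells and 3.69 in unstimulated phenelzine cells, and no peak in unstimulated untreated cells.

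Accessory subunits of complex I stabilise the core and include some of the strongest peaks of the family. Ndufa6 reached −log10 q of 8.91 in stimulated phenelzine cells, 9.27 in stimulated untreated cells, 4.60 in unstimulated phenelzine cells and 6.27 in unstimulated untreated cells. Ndufb9 had 8.21 in stimulated phenelzine cells, 6.03 in stimulated untreated cells, 9.73 in unstimulated phenelzine cells and 5.0 in unstimulated untreated cells. It led the family in the unstimulated phenelzine list, where it ranked 143 of 7929 peaks. Ndufb4, whose promoter is printed above, had 4.50 in stimulated phenelzine cells, 4.53 in stimulated untreated cells, 8.15 in unstimulated phenelzine cells and 5.80 in unstimulated untreated cells. Ndufa8 stood among the 5 strongest genes in unstimulated untreated cells with 8.21. It had 5.10 in stimulated phenelzine cells, 2.88 in stimulated untreated cells and 5.94 in unstimulated phenelzine cells.

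All 8 Ndufaf assembly factors, which build complex I without remaining in it, were held by at least 1 list and 5 of them by all 4. Ndufaf8 was the strongest in 3 lists, with −log10 q of 8.86 in stimulated phenelzine cells, 11.1 in stimulated untreated cells, 6.29 in unstimulated phenelzine cells and 7.51 in unstimulated untreated cells. In unstimulated phenelzine cells Ndufaf7 was higher, with 6.51. Ndufaf1 (2.42) and Ndufaf6 (1.83) were held by the stimulated untreated list alone, with low values.

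Every complex II gene was held by at least 1 list, and 3 of 4 by all lists. Sdhb, the iron-sulfur subunit, had −log10 q of 6.58 in stimulated phenelzine cells, 9.33 in stimulated untreated cells, 4.99 in unstimulated phenelzine cells and 4.22 in unstimulated untreated cells. Sdha, the subunit that oxidises succinate, had 5.75 in stimulated phenelzine cells, 9.78 in stimulated untreated cells and, unstimulated and untreated, 3.13. The unstimulated phenelzine list was the one without an Sdha gene-end peak. The Sdha peaks also lay within 1 kb of an end of Ccdc127.

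All 8 complex III genes of the symbol rule were held by at least 1 list and 5 by all 4. Cyc1, the cytochrome c1 gene of complex III, falls outside the rule and had no gene-end peak in any list. Uqcrc1 had −log10 q of 8.90 in stimulated phenelzine cells, 8.18 in stimulated untreated cells, 7.20 in unstimulated phenelzine cells and 8.79 in unstimulated untreated cells, and stood among the 5 strongest genes in 3 lists, the stimulated untreated list being the exception. Uqcr11, a small subunit, reached 5.81 in stimulated phenelzine cells, 6.97 in stimulated untreated cells, 8.48 in unstimulated phenelzine cells and 4.16 in unstimulated untreated cells. Uqcrc2, the other core protein, was held by both phenelzine lists, with 1.81 in stimulated and 2.49 in unstimulated cells, and by neither untreated list. It was the one gene of the 96 with that pattern, which 0.735% of all genes showed, or 1 of 74 held genes of the family and 2.11% of all held genes. Uqcrb was held by the stimulated phenelzine list alone, with 1.46.

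Complex IV was the least held complex, with 8 of 20 genes in at least 1 list (40.0%, interval 19.1 to 63.9). All 4 lists held 4 of the 20 (20.0%, interval 5.73 to 43.7). The shares of all genes, 34.9% and 17.7% in that order, lie inside these intervals. Of the 20, the stimulated phenelzine list held 7, the stimulated untreated list 8, the unstimulated phenelzine list 6 and the unstimulated untreated list 4. Several of its subunits exist as paired genes, one form expressed widely and the other in muscle, lung, testis or another restricted setting. None of the 8 restricted forms (Cox4i2, Cox6a2, Cox6b2, Cox7a1, Cox7b2, Cox8b, Cox8c and Ndufa4l2) had a gene-end peak in any list. A count of 0 of 8 allows a share of up to 37.5% by the limit of 3 counts and up to 36.9% by the exact interval, and the share of all genes, 34.9%, lies below both, so the count is too small to set these forms apart from all genes. Without them the share was 8 of 12. Among these 12, Cox5a and Cox7a2 had no gene-end peak but had a peak within 1 kb of a start site inside the gene.

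The partner genes allow a reading within families. Cox4i1, the general form of the subunit whose lung form is Cox4i2, had −log10 q of 1.58 in stimulated phenelzine cells and 2.31 in stimulated untreated cells, and no peak in either unstimulated list. Cox6a1, the general form beside the muscle form Cox6a2, had 2.82 in stimulated phenelzine cells, 6.57 in stimulated untreated cells, 6.17 in unstimulated phenelzine cells and 2.93 in unstimulated untreated cells. Cox8a, the general form beside Cox8b and Cox8c, had 2.08 in stimulated phenelzine cells, 4.19 in stimulated untreated cells, 4.99 in unstimulated phenelzine cells and 3.19 in unstimulated untreated cells. Cox6b1, Cox7a2 and Cox7b, the general partners of Cox6b2, Cox7a1 and Cox7b2, had no gene-end peak in any list either. In those 3 pairs neither form was held, so general and restricted forms were not divided by a gene-end peak in every pair. The Cox7a2 pair differed at the start site, however. Every list but that of unstimulated untreated cells had a peak over a Cox7a2 start site inside the annotated gene, over 1 kb from its ends. The peak nearest to an end of Cox7a1 lay 9065 bp away.

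Cox6c and Cox5b, both structural subunits around the catalytic core, had the highest complex IV values in every list but that of unstimulated phenelzine cells. Cox6c had 11.0 in stimulated phenelzine cells, 8.62 in stimulated untreated cells, 4.52 in unstimulated phenelzine cells and 7.70 in unstimulated untreated cells. Cox5b had 5.16 in stimulated phenelzine cells, 10.2 in stimulated untreated cells, 4.33 in unstimulated phenelzine cells and 4.70 in unstimulated untreated cells. Both were held by all 4 lists, and in unstimulated phenelzine cells Cox6a1 (6.17) and Cox8a (4.99) stood above them.

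In complex V, 14 of 17 genes were held by at least 1 list and 8 by all 4. The stimulated phenelzine, stimulated untreated and unstimulated phenelzine lists held 13 each, and the unstimulated untreated list held 8. Atp5b was the strongest gene of the family in 3 lists. Its peak had fold enrichment 9.87 and −log10 q 14.0 in stimulated phenelzine cells (rank 79 of 9322), 10.5 and 16.9 in stimulated untreated cells (rank 64 of 10405), 7.95 and 9.38 in unstimulated phenelzine cells (rank 163 of 7929) and 10.5 and 15.1 in unstimulated untreated cells (rank 59 of 6519). The centre of the peak lay 162, 174, 122 and 142 bases before the start site in that order of lists, over the CCAAT and SP matches of the printed promoter.

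**Figure D2:**
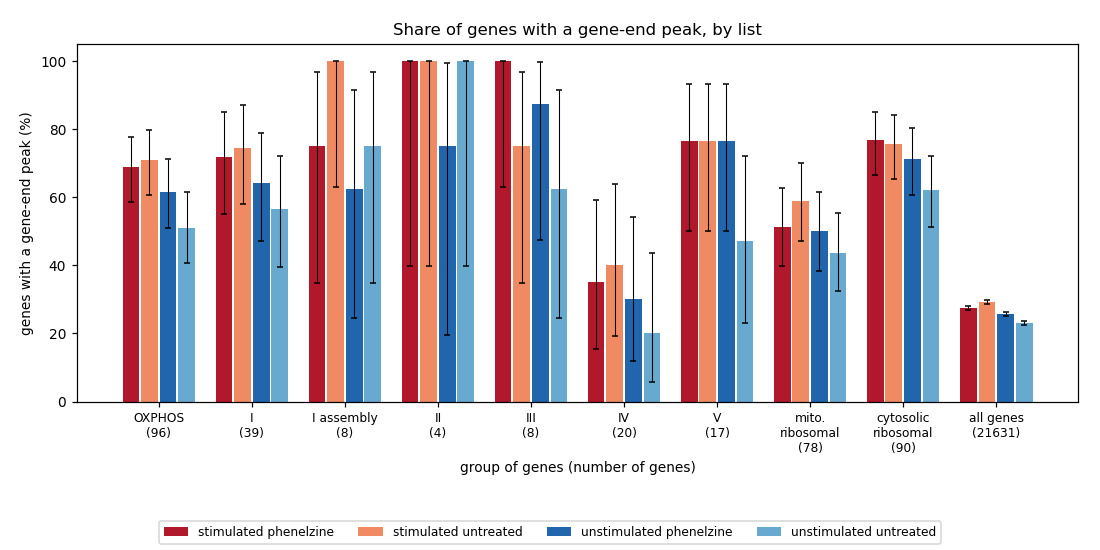
Bars give the percentage of genes with a gene-end peak in each list, by complex, with mitochondrial ribosomal, cytosolic ribosomal and all protein-coding genes at the right. Lines are exact 95% intervals that cover counting error over genes. Complex IV, at 4 to 8 of 20 genes, is the lowest of the complexes, and the 4 bars for all genes lie between 23.0 and 29.3%.

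Stimulation in phenelzine-treated cells was read from the 71 genes held by either of its lists. The stimulated phenelzine list alone held 12 (16.9%, interval 9.05 to 27.7), the unstimulated phenelzine list alone held 5 (7.04%, interval 2.33 to 15.7), and both held 54. Of all genes held by either list, 17.8% were held by the stimulated phenelzine list alone and 12.0% by the unstimulated phenelzine list alone, or 5.54% and 3.73% of all genes. The 12 included Ndufs5 (−log10 q 6.79), Sdha (5.75), Ndufs4 (5.07), Ndufv1 (4.50), Ndufs3 (3.40), Ndufaf3 (2.37), Atp5md (2.06) and Cox7c (1.67). The 5 were Atp5j2 (4.19), Ndufa12 (3.43), Ndufa7 (3.22), Cox7a2l (1.79) and Ndufb1 (1.51). The share of the 12 came near that over all genes. The share of the 5 was lower, and its interval takes in the 12.0% seen over all genes.

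Stimulation in untreated cells gave the most one-sided counts. The stimulated untreated list alone held 19 of the 68 genes held by either list (27.9%, interval 17.7 to 40.1), against 26.1% of all genes held by either list. The unstimulated untreated list alone held 0 (interval 0 to 5.28%), against 6.21% of all genes held by either list. Of all protein-coding genes these were 8.15% and 1.94%. Put another way, each of the 49 genes with a gene-end peak in unstimulated untreated cells had one in stimulated untreated cells too. Taking 3 counts as the limit for a count of 0, 0 of 49 allows up to 6.12%, while the exact interval runs up to 7.25%, and 8.41% of all genes with a peak in the unstimulated untreated list had none in the stimulated untreated list. The count depended on the threshold and the list length: with peaks of −log10 q of at least 3 it was 4 (Atp5o, Ndufa8, Ndufaf2 and Ndufaf3), or 7.02% of the genes held by either list against 10.4% of all such genes. With lists of equal size it was 3 (Ndufaf3, Ndufs3 and Ndufv2), or 4.69% against 15.4%.

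Among the 19 genes, the strongest in stimulated untreated cells were Ndufa7 (6.79), Atp5mpl (6.57), Atp5pb (5.68), Ndufs1 (5.47), Cox7a2l (5.01), Atp5md (4.33), Ndufb3 (4.05) and Ndufb8 (3.69). They include stalk and membrane subunits of ATP synthase (Atp5pb, Atp5mpl and Atp5md), subunits of complex I, and Cox7a2l, a factor in the assembly of respiratory supercomplexes.

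Phenelzine in stimulated cells separated fewer genes of the family. The stimulated phenelzine list alone held 5 of the 73 genes held by either list (6.85%), against 10.4% of all genes held by either list, and the stimulated untreated list alone held 7 (9.59%), against 16.1%. Over all protein-coding genes the shares were 3.4% and 5.27%, and both lists held 61 genes of the family. The 5 were Ndufs4 (5.07), Uqcrc2 (1.81), Ndufa3 (1.59), Uqcrb (1.46) and Ndufb7 (1.38). The 7 were Ndufa7 (6.79), Cox7a2l (5.01), Ndufa12 (3.53), Ndufb1 (2.43), Ndufaf1 (2.42), Ndufab1 (2.10) and Ndufaf6 (1.83). Ndufs4, an accessory subunit at the electron input arm whose loss in mice causes a Leigh-like disease, had a peak 87 bp wide centred 6 bases before its start site in stimulated phenelzine cells and none in the other lists.

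Phenelzine in unstimulated cells gave 15 genes held by the unstimulated phenelzine list alone out of 64 held by either (23.4%), against 20.4% of all genes held by either list. The unstimulated untreated list alone held 5 (7.81%), against 11.7%, and both held 44. Over all protein-coding genes the shares were 5.9% and 3.37%. The strongest of the 15 in the unstimulated phenelzine list were Atp5l (6.35), Atp5mpl (6.17), Atp5k (5.50), Atp5j2 (4.19), Ndufs1 (3.69), Uqcrh (3.69), Ndufa12 (3.43) and Ndufa4 (3.39). Atp5l, Atp5k, Atp5j2 and Atp5mpl encode small membrane subunits of ATP synthase. The 5 genes on the other side were Ndufs5 (4.27), Sdha (3.13), Ndufaf3 (3.07), Ndufv1 (2.39) and Ndufs3 (2.09), and both stimulated lists held all of them.

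**Figure D3:**
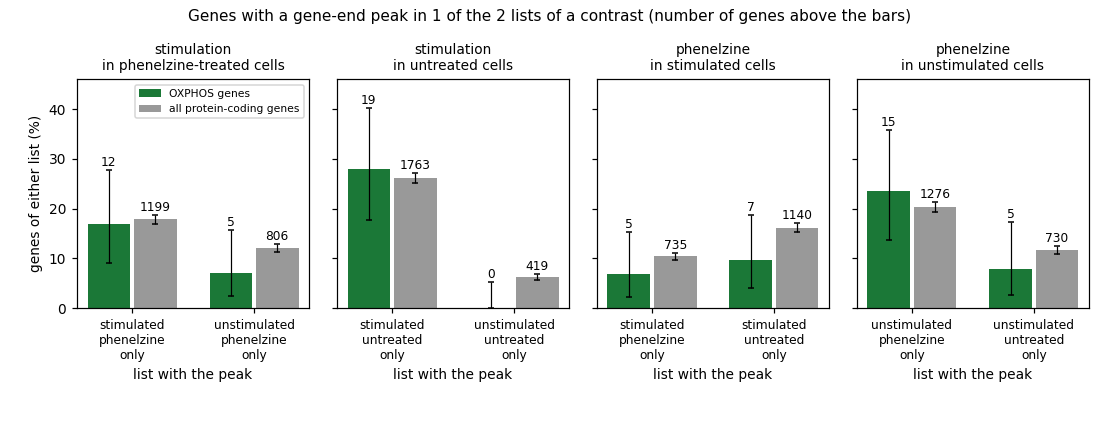
Each panel is one contrast. Green bars give the genes of oxidative phosphorylation, and grey bars all protein-coding genes, with a gene-end peak in one list of the contrast alone, as a percentage of the genes held by either list, with the number of genes above each bar and exact 95% intervals as lines. The second panel shows 19 genes in the stimulated untreated list alone and 0 in the unstimulated untreated list alone.

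The contrasts share lists, so they are not separate observations, and each gene is best placed by its pattern over the 4 lists. After the 44 genes held by every list, the most frequent pattern was absence from the unstimulated untreated list alone, with 9 genes (Atp5k, Atp5l, Atp5mpl, Atp5pb, Ndufa4, Ndufb3, Ndufb8, Ndufs1 and Uqcrh), a pattern of 2.82% of all genes. Over genes held by at least 1 list, this was 12.2% of the family and 8.10% of all genes. Atp5mpl shows it, with −log10 q of 3.80 in stimulated phenelzine cells, 6.57 in stimulated untreated cells, 6.17 in unstimulated phenelzine cells and no peak in unstimulated untreated cells. The unstimulated untreated list was also the shortest, and the part of its length in this pattern was not tested.

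Absence from the unstimulated phenelzine list alone was seen for 5 genes (Ndufaf3, Ndufs3, Ndufs5, Ndufv1 and Sdha), against 1.77% of all genes, or 6.76% of the family's held genes and 5.06% of all held genes. Ndufs5, an accessory subunit of complex I, had −log10 q of 6.79 in stimulated phenelzine cells, 9.22 in stimulated untreated cells and no peak in unstimulated phenelzine cells, and its value in unstimulated untreated cells was 4.27. Both stimulated lists and neither unstimulated list held 3 genes, against 1.69% of all genes. Over held genes the share was 4.05% of the family and 4.84% of all genes, so it was no higher in the family. These were Atp5md, with 2.06 in stimulated phenelzine cells and 4.33 in stimulated untreated cells, Cox4i1, given above, and Cox7c, with 1.67 and 1.75 in that order. All 6 of these values lie below the median of the family's peaks in their list, which was 4.12 in the stimulated phenelzine list and 4.80 in the stimulated untreated list.

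A further 4 genes were held by the stimulated phenelzine list alone (Ndufa3, Ndufb7, Ndufs4 and Uqcrb, against 1.7% of all genes, or 5.41% of held genes of the family and 4.88% of all held genes), 3 by the stimulated untreated list alone (Ndufab1, Ndufaf1 and Ndufaf6, against 2.55%, or 4.05% and 7.30% of held genes in the same order) and 1 by the unstimulated phenelzine list alone (Atp5j2, against 1.25%, or 1 of 74 held genes of the family and 3.58% of all held genes). Ndufa12, Ndufb1, Ndufa7 and Cox7a2l were held by the stimulated untreated and unstimulated phenelzine lists and by neither other, against 1.09% of all genes, or 5.41% of held genes of the family and 3.13% of all held genes. No gene of the family was held by the unstimulated untreated list alone, by both unstimulated lists alone or by both untreated lists alone. Over all protein-coding genes these patterns were 0.670%, 0.305% and 0.550%, or 1.92%, 0.875% and 1.58% of all held genes. Shares this low do not set the family apart, given its 74 held genes.

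The 22 genes that no list held fell only in part into recognisable sets. They include the 8 restricted forms named above, and the 3 genes of the family on the X chromosome (Ndufa1, Ndufb11 and Cox7b), where at least 1 list held 15.0% of all genes. A count of 0 of 3 allows a share of up to 70.8% by the exact interval, so it does not set these genes apart. For Atp5g3, Cox7a2, Atp5d and Cox5a the promoter table places a start site inside the annotated gene, more than 1 kb from its end, and a peak lay within 1 kb of that site. The stimulated phenelzine, stimulated untreated and unstimulated phenelzine lists held such a peak for Atp5g3, Cox7a2 and Atp5d, and the stimulated phenelzine list for Cox5a, while the unstimulated untreated list held none. Cox7a2 had −log10 q of 3.33 in stimulated phenelzine cells, 4.70 in stimulated untreated cells and 4.08 in unstimulated phenelzine cells at this site. The remaining genes included Ndufb2, Ndufb4b, Ndufb4c, Ndufc2, Cox6b1 and Atp5a1, the gene of the alpha subunit of ATP synthase. A missing gene-end peak says that no peak was called, not that the gene was closed or silent.

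A window of 2 kb would hold 75 genes in place of 74, adding Atp5g3. The peaks nearest to the 1 kb limit were those of Ndufa13 on the inside, 801 to 824 bp from the gene end, and those of Atp5g3 on the outside, 1039 to 1090 bp away.

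The family's gene-end peaks ranked above the typical gene-end peak of their list. Their median −log10 q was 4.12 in stimulated phenelzine cells, 4.80 in stimulated untreated cells, 4.33 in unstimulated phenelzine cells and 3.86 in unstimulated untreated cells. Over all gene-end peaks the medians were 3.37, 3.89, 3.24 and 3.32 in that order of lists. The median peak of the family lay above 75.0% of all peaks in the stimulated phenelzine list, 76.1% in the stimulated untreated list, 78.4% in the unstimulated phenelzine list and 69.0% in the unstimulated untreated list. The median widths of the family's gene-end peaks were 145 bp in stimulated phenelzine cells, 174 bp in stimulated untreated cells, 159 bp in unstimulated phenelzine cells and 162 bp in unstimulated untreated cells, against 156, 174, 157 and 149 bp over all gene-end peaks in that order of lists.

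The accessible regions sat at start sites. Over the 4 lists the family had 251 gene-end peaks, 219 of them at genes with a start site in the promoter table, and 215 of those lay nearer the start than the other end of the gene. The other 4 were the far-end peaks of Ndufb6, 1 per list, which lie near Smim27 and Topors. The median centre lay at −42 bp from the start site in stimulated phenelzine cells, −50 bp in stimulated untreated cells, −50.5 bp in unstimulated phenelzine cells and −37.5 bp in unstimulated untreated cells. In stimulated phenelzine cells 87.9% of the centres were within 200 bases of the start site, against 77.8% over all genes. The shares were 86.9% against 77.1% in stimulated untreated cells, 87.0% against 78.2% in unstimulated phenelzine cells and 89.1% against 77.9% in unstimulated untreated cells.

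**Figure D4:**
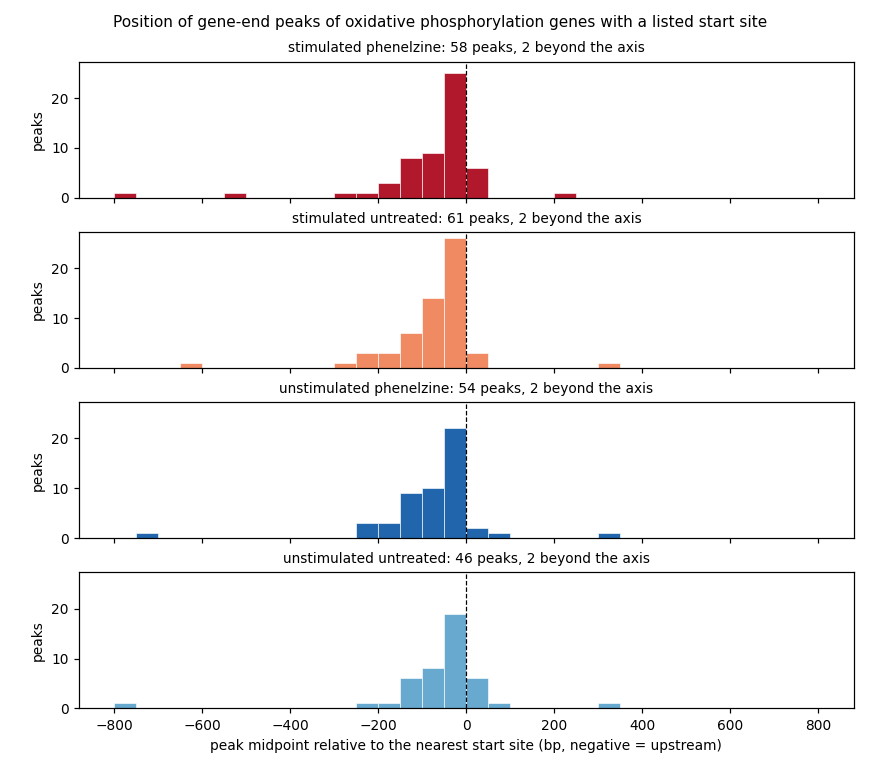
Histograms, 1 per list, count the gene-end peaks of the family by the distance of their midpoint from the nearest annotated start site in bp (negative is upstream, dashed line at the site). Most peaks stand just upstream of the site in every list, with medians of −42, −50, −50.5 and −37.5 bp from the top panel down, and 2 peaks per list lie beyond the axis.

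Besides Ndufb6, which had 2 gene-end peaks in every list, 2 genes had more than 1 in a list. Ndufa13, whose product is also known as GRIM-19, had 2 in the stimulated untreated, unstimulated phenelzine and unstimulated untreated lists, 1 of them well before its start site, near Tssk6. Its stimulated phenelzine peak was centred at −1300 bp from the start site. Ndufa11 had 2 in the stimulated phenelzine and unstimulated phenelzine lists. The inner peak was centred at −37 bp from the start site in stimulated phenelzine cells and −38 bp in unstimulated phenelzine cells. The outer peak was centred at −757 bp in stimulated phenelzine cells and −730 bp in unstimulated phenelzine cells.

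Many of these regions were shared with a neighbour. Of the 74 held genes, 36 (48.6%, interval 36.9 to 60.6) had a gene-end peak that also lay within 1 kb of an end of another protein-coding gene, against 33.0% of all held genes (2487 of 7545). Partners included other mitochondrial genes, as in Ndufs6 with Mrpl36 and Ndufb5 with Mrpl47 (both mitochondrial ribosomal protein genes) and Sdhd with Timm8b, of mitochondrial protein import. Partners in translation were Rps28 beside Ndufa7 and Eef1b2 beside Ndufs1. Atp5j, a stalk subunit gene of ATP synthase, shared its peak with Gabpa, which encodes the DNA-binding subunit of GABP. That peak had −log10 q of 2.97 in stimulated phenelzine cells, 4.57 in stimulated untreated cells, 5.46 in unstimulated phenelzine cells and 4.64 in unstimulated untreated cells. A shared peak cannot be assigned to one gene of the pair. Leaving the 36 genes out left 60, of which 38 (63.3%) were held by at least 1 list, against 26.4% of the genes that shared no peak.

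The promoter table held 83 promoters of 78 of the 96 genes, and 21045 promoters of all protein-coding genes. The NRF1 motif was in 20 of the 83 (24.1%), against 6.44% of all promoters of the same length and 13.7% of those of all genes with a gene-end peak. The ETS motif was in 22.9%, against 11.7% of all promoters and 22.0% of those of genes with a gene-end peak. The YY1 motif was in 13.3%, against 3.07% and 5.54% in the same order. The CRE was in 4.82%, against 2.26% and 3.89%. The SP motif was in 43.4%, against 46.7% and 66.0%, the CCAAT box in 42.2%, against 38.5% and 42.9%, and the AP-1 motif in 8.43%, against 7.04% and 4.39%. NRF1, YY1, CRE and AP-1 letters were thus more frequent than in both comparison sets, with the CRE in 4 promoters and the AP-1 motif in 7. ETS letters were more frequent than in all promoters and close to those of held genes. SP letters were close to all promoters and less frequent than in those of held genes. The 83 include 16 promoters of genes that no list held. In the 67 promoters of the family's held genes, NRF1 letters were in 28.4%, ETS in 26.9% and YY1 in 16.4%. The SP motif was in 46.3% of them, the CCAAT box in 38.8%, the CRE in 4.48% and the AP-1 motif in 10.4%. These are matches to letters, not bound sites.

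The NRF1 motif was counted by how many lists held the gene. Of the 42 promoters of genes in all 4 lists, 16 (38.1%) had the NRF1 motif, against 18.4% of promoters of all genes in all 4 lists. It was in 3 of the 25 promoters of genes in 1 to 3 lists and in 1 of the 16 of genes in none. The lists were counted by gene-end peaks. That 1 promoter was of Atp5g3, which had a peak over its start site in every list but that of unstimulated untreated cells. The SP and AP-1 motifs fell in the same order. The SP motif was in 21 of 42, 10 of 25 and 5 of 16 promoters, and the AP-1 motif in 5 of 42, 2 of 25 and 0 of 16. Of promoters of all genes in all 4 lists, 69.0% had the SP motif, against 46.7% of all promoters. For the AP-1 motif these shares were 3.97% and 7.04%. The ETS and YY1 motifs, the CRE and the CCAAT box did not follow this order. The ETS motif was in 26.2% of promoters of genes in all 4 lists, 28.0% of those in 1 to 3 lists and 1 of 16 of those in none. The YY1 motif was in 6 of 42, 5 of 25 and 0 of 16 in the same order. The CCAAT box was in 18 of 42 promoters of genes in all 4 lists, 8 of 25 of those in 1 to 3 lists and 9 of 16 of those in none. Over all genes in all 4 lists, the ETS motif was in 23.5% of promoters, the YY1 motif in 5.79% and the CCAAT box in 49.0%. In Uqcrc1, NRF1 matches lay 5 to 14 and 30 to 39 bases after the start site, and peaks of all 4 lists lay over both. In Ndufb4, peaks of all 4 lists lay over the middle of the 3 matches, 79 to 70 bases before the start. In Sdha, the 3 lists with a peak covered the 2 matches nearest the start. Atp5md had no NRF1 match, and its peaks in both stimulated lists lay over an SP match 80 to 75 bases before the start.

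The promoters of the family were also compared by CpG content. The observed over expected CpG ratio, which is near 1 in unmethylated CpG islands and low elsewhere in the mouse genome, had a median of 0.829 in the family's promoters, against 0.574 in all promoters. It was 0.855 in the 67 promoters of held genes, against 0.804 for all genes with a gene-end peak, and 0.580 in the 16 promoters of genes without one. Those 16 include promoters of Atp5g3, Atp5d, Cox5a and Cox7a2, which had a peak within 1 kb of a start site inside the gene. Their ratios ran from 0.696 (Atp5d) to 1.14 (Cox5a). By the number of lists that held the gene, the medians were 0.580 for no list, 0.684 for 1 list, 0.976 for 2, 0.872 for 3 and 0.838 for 4, so the median was highest for genes in 2 lists and did not climb with the number of lists. The printed promoters span this range, with 1.23 for Atp5md and 0.115 for Cox8b.

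**Figure D5:**
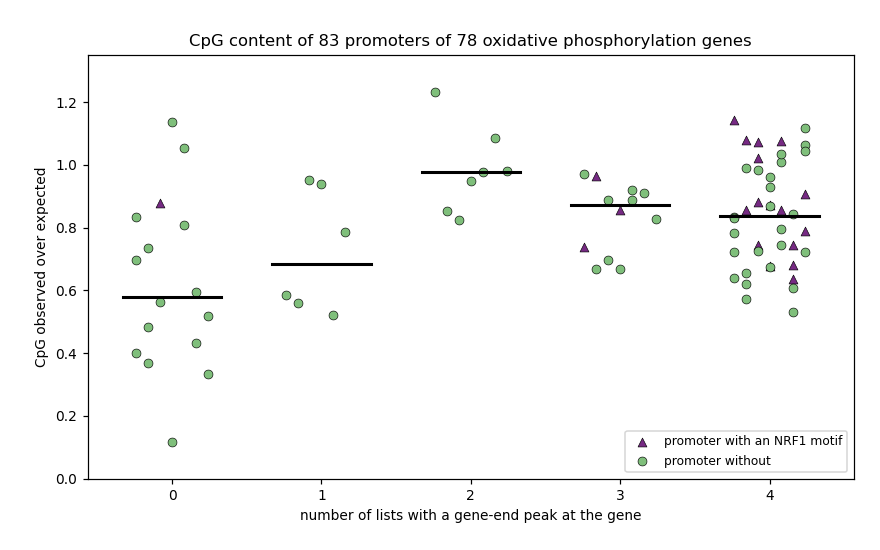
Each point is 1 of 83 promoters, placed by the number of lists with a gene-end peak at the gene and by its observed over expected CpG ratio; triangles carry the NRF1 motif, circles do not, and bars are medians. Promoters of genes in no list have the lowest median (0.580), and 16 of the 42 promoters of genes in 4 lists are triangles. The genes in no list include Atp5g3, Atp5d, Cox5a and Cox7a2, which had a peak within 1 kb of a start site.

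Genes around the pathway were read in the same way. Of all genes, at least 1 list held 34.9%, and the lists held 27.4%, 29.3%, 25.6% and 23.0% in the order used above. Of 42 other assembly factors of complexes I to V, 38 were held by at least 1 list (interval 77.4 to 97.3%). The stimulated phenelzine list held 28, the stimulated untreated list 31, the unstimulated phenelzine list 30 and the unstimulated untreated list 20. Foxred1, an assembly factor of complex I, had −log10 q of 12.0 in stimulated phenelzine cells, 12.3 in stimulated untreated cells, 8.27 in unstimulated phenelzine cells and 3.70 in unstimulated untreated cells. Surf1, a complex IV factor, and Atpaf1 and Atpaf2, which assemble the catalytic head of complex V, had no gene-end peak. Of 16 genes of cytochrome c, cytochrome c1 and coenzyme Q synthesis, 10 were held by at least 1 list (interval 35.4 to 84.8%). Cycs, the somatic cytochrome c gene, had 6.80 in stimulated phenelzine cells, 13.7 in stimulated untreated cells, 6.36 in unstimulated phenelzine cells and 5.95 in unstimulated untreated cells, while Cyct, its testis form, had none. Of 17 genes of pyruvate dehydrogenase and the tricarboxylic acid cycle, 13 were held by at least 1 list (interval 50.1 to 93.2%). The stimulated phenelzine list held 12, the stimulated untreated list 11, the unstimulated phenelzine list 11 and the unstimulated untreated list 8.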

How the data were processed

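ATAC-seq peaks were deposited as 1 list per library, 4 in all, called in each library on its own. Per the submitters' processing notes, the tools were Bowtie2 2.2.5, HOMER, MACS2, Picard and Trimmomatic 0.33, with the build mm10. Other versions and all parameters were not given in the sources used here. The names of the peaks carry a tag, less120, whose meaning is not explained there. The deposited score was the −log10 q-value times 10, with decimals dropped, in 99.98 to 100% of peaks. The deposited fold enrichment is a ratio to local background, and the authors gave each p-value and q-value as −log10, so a threshold or depth that differed between libraries would change which peaks exist.

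Peaks on the Y chromosome (6 to 9 per list) were left out. Gene positions came from a RefSeq table of GRCm38.p6 (mm10), and a gene was held by a list when a peak overlapped the 1 kb window around either end. Shares carry exact (Clopper-Pearson) 95% intervals. With 1 library per condition no test was made. The genes and lists were chosen with earlier results of these data known. Genes named are the 5 with the highest −log10 q per list, up to 8 per side of a contrast, those held by both lists of one state alone, those with 2 or more peaks, those without a peak and the restricted forms; genes named for their role, a shared peak or a neighbouring pathway were chosen after their values were seen. All 156 genes of the pathway and marker lists were found in the table. One gene is counted in the totals and not reported here by name. The counting was tested on simulated data, where 1000 of 1000 planted patterns were recovered. The peaks were planted at set distances outside genes far from any other gene end. Shared peaks and start sites inside a gene were therefore not covered. Alternatives were other windows, a −log10 q minimum of 3, lists of equal size, peak midpoints, start sites alone, subunits without the Ndufaf genes, and genes sharing no peak. Python 3.11.15, pandas 2.3.3, numpy 2.4.6, scipy 1.17.1 and matplotlib 3.10.9 were used.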

Additional observations from a re-analysis of the deposited data

Results flagged for a closer look

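For 4 genes, the stimulated list alone held a gene-end peak in untreated cells, and the unstimulated list alone held one in phenelzine-treated cells. Their peaks were in the stimulated untreated and unstimulated phenelzine lists and in neither of the others. Ndufa7, an accessory subunit of complex I, had −log10 q of 6.79 in stimulated untreated cells and 3.22 in unstimulated phenelzine cells. Cox7a2l had 5.01 in stimulated untreated cells and 1.79 in unstimulated phenelzine cells. Ndufa12 had 3.53 in stimulated untreated cells and 3.43 in unstimulated phenelzine cells. Ndufb1 had 2.43 in stimulated untreated cells and 1.51 in unstimulated phenelzine cells. The difference between the arms was not tested, since each condition is 1 library. With peaks of −log10 q of at least 3, Ndufa12 and Ndufa7 kept the pattern, while Cox7a2l and Ndufb1 did not. Atp5l, Cox6a1 and Uqcrh showed it at that threshold instead. With lists of equal size, Ndufb1 dropped out, while Atp5l and Ndufb3 took on the pattern. In the main count the pattern was held by 4 of the 74 genes with a gene-end peak (5.41%), against 236 of 7545 over all genes (3.13%). Ndufa7 and Ndufb1 share their peaks with Rps28 and Cpsf2.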

How the results depend on the processing

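Of 112 values (14 counts under 8 alternatives), 94 stayed within 1.5 times the main count. Windows of 500 bp or 2 kb, peak midpoints, start sites alone and leaving out the Ndufaf genes moved none beyond that limit. Start sites alone left the 78 genes with a listed start site, of which at least 1 list held 67 (85.9%, all genes 37.5%). The genes counted also changed there. Atp5d, Atp5g3, Cox5a and Cox7a2 entered, while held genes without a listed start site, such as Cox4i1 and Uqcrb, left. With −log10 q of at least 3, all 4 lists held 24 genes (25.0%, all genes 7.79%), against 44. One-list counts below are followed by the share of the family and of all genes held by either list at that setting. Under stimulation with phenelzine the unstimulated phenelzine list alone held 10 (17.5%, all genes 18.1%), against 5. Under stimulation without it the unstimulated untreated list alone held 4 (7.02%, all genes 10.4%), against 0. Under phenelzine in stimulated cells the stimulated untreated list alone held 11 of 58 (all genes 28.5%), against 7. With lists of equal size, the unstimulated phenelzine list alone held 9 (14.1%, all genes 16.4%) under stimulation with phenelzine. The unstimulated untreated list alone held 3 (4.69%, all genes 15.4%) under stimulation without it, and the stimulated phenelzine list alone 3 (4.69%, all genes 16.1%) under phenelzine in stimulated cells. Leaving out the genes that share a peak, an alternative chosen after seeing the data, left 60 genes and so lowered counts by its construction. At least 1 list then held 38 (63.3%, all genes 26.4%) and all 4 lists 21 (35.0%, all genes 12.3%). The stimulated phenelzine list held 32 (53.3%, all genes 20.0%), the stimulated untreated list 33 (55.0%, 21.5%), the unstimulated phenelzine list 29 (48.3%, 18.6%) and the unstimulated untreated list 23 (38.3%, 16.6%). Under stimulation with phenelzine the one-list counts were 6 in the stimulated list (17.1%, all genes 19.6%) and 3 in the unstimulated list (8.57%, 13.2%). Under stimulation without it the stimulated untreated list alone held 10 (30.3%, all genes 28.6%). Under phenelzine in unstimulated cells they were 8 in the phenelzine list (25.8%, all genes 22.0%) and 2 in the untreated list (6.45%, 12.8%). For the threshold and equal-size settings, the cause was not tested. No paired analysis was possible because each condition is 1 library. A peak called or missed near the threshold, and list length, limit every count.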

Other observations

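Of 16 glycolysis genes, 11 had a gene-end peak in at least 1 list (interval 41.3 to 89.0%), against 34.9% of all genes. The stimulated phenelzine list held 7, the stimulated untreated list 10, the unstimulated phenelzine list 7 and the unstimulated untreated list 7. The shares of all genes were 27.4%, 29.3%, 25.6% and 23.0% in that order. Pgam1, phosphoglycerate mutase, had −log10 q of 8.75 in stimulated phenelzine cells, 6.57 in stimulated untreated cells, 3.80 in unstimulated phenelzine cells and 5.0 in unstimulated untreated cells. Ldha, Aldoa, Tpi1, Hk1 and Slc2a3 had no gene-end peak in any list.

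Of 15 regulators of mitochondrial genes, 10 had a gene-end peak in at least 1 list (interval 38.4 to 88.2%), against 34.9% of all genes. Tfb2m, a mitochondrial transcription factor, had −log10 q of 3.92 in stimulated phenelzine cells, 10.8 in stimulated untreated cells, 5.18 in unstimulated phenelzine cells and 3.75 in unstimulated untreated cells. Tfam, which packages mitochondrial DNA, had 4.73 in stimulated phenelzine cells, 1.5 in stimulated untreated cells and 2.46 in unstimulated phenelzine cells, and no peak in unstimulated untreated cells. Nrf1, Ppargc1a and Ppargc1b had none in any list.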
